A study of Mus musculus with 12 samples.

Results

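The respiratory chain is the set of protein complexes of the inner mitochondrial membrane that passes electrons from nutrients to oxygen and uses the resulting proton gradient to make ATP. The genes described here were taken by symbol: the Nduf subunit genes of complex I (NADH dehydrogenase), Sdha to Sdhd of complex II (succinate dehydrogenase), the Uqcr genes of complex III (the cytochrome bc1 complex), the Cox4 to Cox8 genes of complex IV (cytochrome c oxidase), the Atp5 genes of ATP synthase (complex V), and the protein genes of mitochondrial DNA. Ndufa4l2, Cox4i2 and pseudogenes were left out by the rule. It found 87 of the 15663 genes in the 4 joined tables, with 41 in complex I, 4 in complex II, 9 in complex III, 17 in complex IV and 16 in ATP synthase. Of these, 79 are nuclear and 8 are mitochondrial genes. Ndufa4, first described in complex I, is counted with complex IV. Cox7a2l is a factor that joins complexes III and IV, and Atp5s and Atp5sl are not subunits of the enzyme, although all 3 carry symbols that the rule takes.

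RNA was sequenced from embryonic day 9.5 mouse hearts labelled strain C57/BL 6, with 3 libraries in each of 4 genotypes. The Asb2 cKO group is NkxCre.Asb2fl/fl, the Flna-labelled group is NkxCre.Asb2fl/+.Flnafl/fl, the double mutant is NkxCre.Asb2fl/fl.Flnafl/fl, and the control is NkxCre.Asb2fl/+. All groups therefore carried the Cre driver, which acts in the lineage that expresses Nkx and not in every cell of the heart, and at least 1 floxed Asb2 allele, the control included. Asb2 encodes the substrate receptor of a ubiquitin ligase and Flna encodes filamin A, an actin crosslinker that this ligase targets. Nothing in the labels ties the libraries to embryos, litters or pools, and a p-value here reflects how far these particular libraries differ from each other, which may be technical.

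Values are given in CPM, read counts relative to a scaled library size as the deposited values show, from 25954539 to 42473118 reads in listed genes per library. Asb2 had 77.8, 163 and 115 CPM in Asb2 cKO libraries, 125, 113 and 197 CPM in Flna-labelled libraries and 122, 121 and 153 CPM in double mutant libraries, against 289, 183 and 218 CPM in control libraries. Flna mRNA did not fall with its label: it had 1032, 869 and 725 CPM in Asb2 cKO libraries, 958, 1011 and 990 CPM in Flna-labelled libraries and 1012, 1012 and 1146 CPM in the double mutant, against 490, 554 and 721 CPM in control libraries. The Flna genotype is therefore given as a label only. Asb2 mRNA did not separate the Asb2fl/fl groups from the Flna-labelled hearts, which carry Asb2fl/+ like the control: its log2 fold change against control was -0.99 ± 0.26 (SE) in Asb2 cKO (limma adjusted p = 0.025), -0.68 ± 0.24 in Flna-labelled (limma adjusted p = 0.33) and -0.78 ± 0.17 in double mutant hearts (limma adjusted p = 0.0072). Flna is X-linked, and Xist, the RNA of the inactive X chromosome of females, had 0.38 to 571 CPM in Asb2 cKO, 0.051 to 0.367 CPM in Flna-labelled and 0.048 to 9.34 CPM in double mutant libraries, against 0.823 to 302 CPM in control libraries. The libraries thus differed in Xist within and between groups, and its part in the results was not tested. The cardiac actin gene Actc1 was abundant in every library, at 7598 to 12065 CPM in Asb2 cKO, 5334 to 9846 CPM in Flna-labelled and 7968 to 12755 CPM in double mutant libraries, against 8152 to 12740 CPM in control libraries, and Flna-labelled libraries 1 and 2 lay below every control library.

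Complex I takes electrons from NADH and complex II takes them from succinate. Both pass them through ubiquinone to complex III, cytochrome c carries them to complex IV, and complex IV reduces oxygen. Every complex but II mixes subunits from nuclear genes with a few from mitochondrial DNA. The embryonic heart at this stage still draws much of its ATP from glycolysis, and its mitochondria mature later in gestation.

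Many nuclear genes of the chain share short promoter motifs, such as that of nuclear respiratory factor 1 (NRF1), and these were searched because the members' mRNAs moved together. RefSeq promoter windows of 300 bases (250 before to 50 after the gene start, GRCm38.p6) were found for 64 of the 87 member genes, in 69 windows. The NRF1 motif (GCGC, any base, then TGCGC), read on both strands, stood in 17 of these (24.6%), against 4.60% of all 32851 windows. For 1 member of each complex that was lower in Asb2 cKO hearts, the motif (in capitals) is shown with 30 bases before it and, where these lie before the gene start, 30 bases after it, 5′ to 3′ in the direction of the gene.
Ndufa5, complex I, chr6:24527677-24527746, minus strand: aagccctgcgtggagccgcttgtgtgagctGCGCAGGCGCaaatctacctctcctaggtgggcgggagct
Sdhd, complex II, chr9:50603889-50603958, minus strand: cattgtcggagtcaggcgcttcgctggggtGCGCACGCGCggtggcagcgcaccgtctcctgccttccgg
Uqcrc1, complex III, chr9:108936623-108936662, plus strand: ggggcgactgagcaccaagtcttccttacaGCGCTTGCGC
Cox6a1, complex IV, chr5:115349081-115349150, minus strand: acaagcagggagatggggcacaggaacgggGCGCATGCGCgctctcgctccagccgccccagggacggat
Atp5k, ATP synthase, chr5:108434410-108434479, minus strand: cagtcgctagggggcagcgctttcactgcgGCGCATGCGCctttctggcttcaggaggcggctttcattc

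The first base of the motif lies 190, 79, 162 and 50 bases before the RefSeq start of the window shown in Ndufa5, Sdhd, Cox6a1 and Atp5k. In Uqcrc1 it lies just after that start. The Ndufa5 stretch lies inside the GENCODE M21 gene (chr6:24518666-24528013, minus strand), which starts further upstream than this RefSeq start. A YY1 motif (AANATGGCG, both strands) stood in 10 of the 69 member windows (14.5%), against 2.38% of all windows, an ETS motif (CCGGAAGT, both strands) in 7.25% against 3.89%, and an ERR motif (TCAAGGTCA, both strands) in 2.90% against 0.423%. Member windows were richer in G and C (median 57.3%, against 52.7% for all windows), and these 4 counts were not corrected for it. The NRF1 motif was found in 14 of 50 windows of members that were lower in Asb2 cKO hearts and in 3 of 19 windows of the other members, Ndufa6 among them. A match is a description of these letters and says nothing about binding.

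Summed over members, respiratory chain mRNA was lower in each of the 9 libraries of the 3 other genotypes than in any control library, for both genomes. Nuclear members took 1.31, 1.46 and 1.65% of the signal in Asb2 cKO libraries, 1.81, 1.70 and 1.92% in Flna-labelled libraries and 1.53, 1.67 and 1.47% in double mutant libraries, against 2.34, 2.27 and 1.98% in control libraries. Mitochondrial members took 0.291, 0.326 and 0.295% in Asb2 cKO libraries, 0.318, 0.338 and 0.383% in Flna-labelled libraries and 0.199, 0.238 and 0.271% in double mutant libraries, against 0.674, 0.837 and 0.545% in control libraries. These mitochondrial values cover the 7 members listed in all groups and not every protein gene of mitochondrial DNA. For these 7 the mitochondrial drop was the deeper one. The ratio of mitochondrial to nuclear signal was 0.208 ± 0.025 in Asb2 cKO, 0.192 ± 0.014 in Flna-labelled and 0.152 ± 0.029 in double mutant libraries, against 0.311 ± 0.051 in control libraries (SD, n = 3 each). Control library 3 was the lowest of its group for both genomes.

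**Figure D1:**
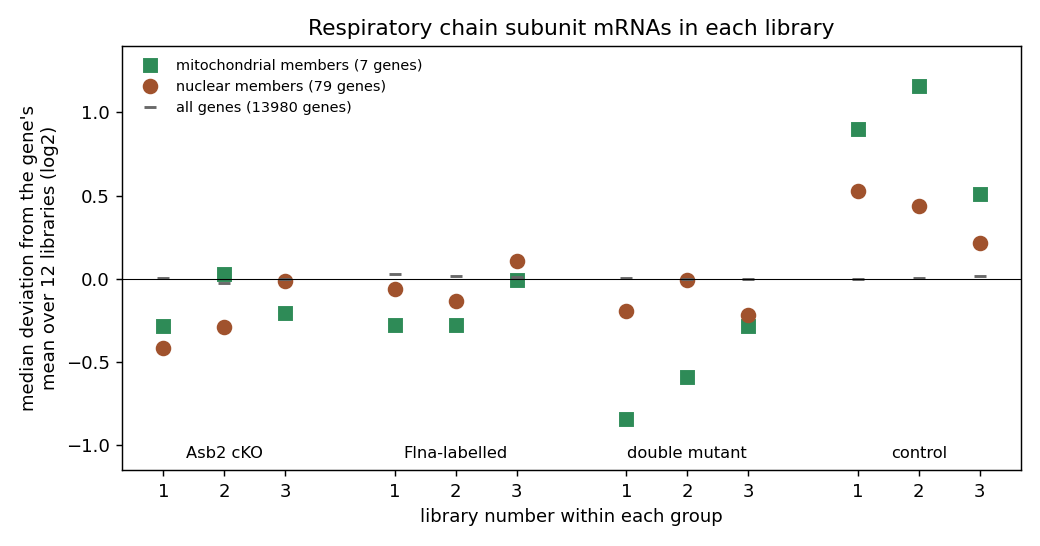
Median deviation of the members from their own mean over the 12 libraries, on the log2 scale, for each library of the 4 groups; green squares are the 7 mitochondrial members listed in all groups, brown circles the 79 nuclear members and grey dashes all genes. The 3 control libraries lie highest for both genomes (0.51 to 1.16 for mitochondrial and 0.22 to 0.53 for nuclear members), while the median of all genes stays near 0 in every library.

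In a bulk heart sample, fewer cells of a type and less RNA per cell cannot be told apart. The 11 primitive erythroid markers (globins, Gata1, Klf1, Alas2 and others) summed to 518 to 1219 CPM in Asb2 cKO, 3110 to 3995 CPM in Flna-labelled and 356 to 605 CPM in double mutant libraries, against 7549 to 8195 CPM in control libraries, with no marker at 0. All 11 were lower in Asb2 cKO and in double mutant hearts and 4 of 11 in Flna-labelled hearts against control. The 15 cardiomyocyte markers summed to 26449 to 44883 CPM in Asb2 cKO, 19557 to 36197 CPM in Flna-labelled and 31461 to 48452 CPM in double mutant libraries, against 32338 to 48228 CPM in control libraries. Flna-labelled libraries 1 and 2 were below every control library, and the median fold change of the 15 markers there was -0.53 with 0 called by limma. Against control, 1 marker was lower in Asb2 cKO hearts, and 3 were higher and 1 lower in double mutant hearts, while 5 were higher in double mutant than in Flna-labelled hearts. Endocardial and endothelial markers summed to 818 to 1203 CPM in Asb2 cKO, 624 to 802 CPM in Flna-labelled and 1038 to 1362 CPM in double mutant libraries, against 689 to 845 CPM in control libraries, and 5 of 8 were called higher in double mutant hearts against control. In Asb2 cKO hearts 2 of these were higher and 2 lower. Pharyngeal endoderm and surface ectoderm markers summed to 426 to 584 CPM in Asb2 cKO, 231 to 434 CPM in Flna-labelled and 336 to 562 CPM in double mutant libraries, against 228 to 300 CPM in control libraries. Of these, 3 were higher and 1 lower in Asb2 cKO hearts, and 2 were higher in double mutant hearts. No marker of the neural crest and mesenchyme list or of the proepicardium and epicardium list was called by limma against control. Of all genes tested against control, 10.7% were called higher and 10.9% lower in Asb2 cKO hearts. In double mutant hearts these shares were 15.6% and 16.7%. In Flna-labelled hearts 0.072% of all genes were called in either direction. Of all genes, 15.1% were higher in double mutant than in Flna-labelled hearts. The part of cell composition in the results below was not tested.

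Each group was compared with the control by limma on the log2 of CPM plus 0.5, a scale that shrinks the change of weakly expressed genes. Genes averaging under 1 CPM in the libraries compared were not tested. A gene is called where its p, adjusted by Benjamini-Hochberg over all genes tested, was under 0.05. The comparisons with control share the same 3 control libraries, so they are not independent of each other.

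Asb2 cKO hearts had lower mRNA for subunits of all 5 complexes. Of 86 members tested, 65 were lower, where 10.9% of all 14034 genes tested were, and 1 was higher, where 10.7% were. The median log2 fold change was -0.65 for members, -0.64 for nuclear and -0.93 for mitochondrial ones, against -0.01 for all genes. Calls reached 28 of 35 nuclear genes of complex I, 4 of 4 of complex II, 8 of 8 of complex III, 8 of 16 of complex IV and 11 of 16 of ATP synthase. The count of called members fell to 35 without control library 1 and to 34 without control library 2. Calls over all genes fell as well, from 3033 of 14034 to 1771 of 14054 and 1581 of 14039.

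In complex I, all 7 nuclear core subunits, which carry the flavin and iron-sulfur clusters or sit at the quinone site, were lower in Asb2 cKO hearts, as were 21 of 28 accessory subunits, which surround that core. Ndufs8, a core subunit that holds iron-sulfur clusters, had 52.1, 57.6 and 69.9 CPM in Asb2 cKO libraries, against 116, 113 and 98.6 CPM in control libraries (log2 fold change -0.87 ± 0.14 (SE), limma adjusted p = 0.0032). Ndufs1, the largest core subunit, had 190, 230 and 225 CPM in Asb2 cKO libraries, against 353, 362 and 361 CPM in control libraries (-0.74 ± 0.13, limma adjusted p = 0.0042). The groups did not overlap for either gene. The accessory membrane-arm subunits Ndufb10 (-0.86 ± 0.13) and Ndufb6 (-0.97 ± 0.16) had limma adjusted p of 0.0018 and 0.0032. The lowest fold change of the complex among nuclear genes was that of Ndufa5, an accessory subunit, with 54.3, 61.9 and 96.1 CPM in Asb2 cKO libraries, against 170, 174 and 111 CPM in control libraries (-1.11 ± 0.23).

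Complex II is also an enzyme of the citric acid cycle, and all its subunits are nuclear. Sdhb, its iron-sulfur subunit, had 149, 169 and 212 CPM in Asb2 cKO libraries, against 358, 376 and 318 CPM in control libraries (-0.997 ± 0.15, limma adjusted p = 0.0022). The membrane anchors Sdhc (-0.64 ± 0.14) and Sdhd (-0.66 ± 0.15) and the flavoprotein Sdha (-0.43 ± 0.13, limma adjusted p = 0.043) were lower too. Sdha stood closest to the threshold: its call was lost in 5 of the 6 fits that left out 1 library, with an adjusted p of 0.083 to 0.127. That of Sdhd was lost without control library 1 (adjusted p = 0.0548).

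In complex III, the lowest p was that of the small subunit Uqcr10, which had 103, 113 and 127 CPM in Asb2 cKO libraries, against 257, 229 and 170 CPM in control libraries (-0.92 ± 0.17, limma adjusted p = 0.0048). Uqcrfs1, the Rieske iron-sulfur protein that hands electrons to cytochrome c1, had 190, 231 and 255 CPM in Asb2 cKO libraries, against 390, 396 and 339 CPM in control libraries (-0.74 ± 0.15, limma adjusted p = 0.0071). The core protein Uqcrc1 (-0.69 ± 0.13) and the small subunit Uqcrq (-0.85 ± 0.17) were lower as well.

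Complex IV had the smallest share of nuclear genes called lower, 8 of 16. Cox5a, a subunit on the matrix side, had 213, 236 and 292 CPM in Asb2 cKO libraries, against 504, 464 and 388 CPM in control libraries (-0.87 ± 0.16, limma adjusted p = 0.0049). Cox6a1 (-0.85 ± 0.18), Cox6c (-0.60 ± 0.14) and Cox7a2 (-0.61 ± 0.15) were also lower, although Cox6c and Cox7a2 lost their calls without control library 1 (adjusted p = 0.0652 and 0.0669) or control library 2 (adjusted p = 0.0541 and 0.0536). Cox4i1, the general form of the largest nuclear subunit, did not pass (-0.47 ± 0.17, limma adjusted p = 0.073), nor did Cox8a (-0.33 ± 0.13, limma adjusted p = 0.091). The small subunit Cox7c had a fold change of -0.05 ± 0.20. The annotation names pseudogene copies of Ndufa11, Ndufb4, Ndufs6, Uqcrh, Atp5c1, Atp5k and Atp5l, so reads could be shared with these copies and the values of these members are uncertain. Only copies named after their parent gene were searched for, so other genes may have copies under other names.

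ATP synthase has a catalytic F1 head and a membrane part (Fo) with a ring of c subunits that turns as protons pass. All 9 genes of Fo and the stalk were lower in Asb2 cKO hearts, with a median of -0.89, and 2 of the 5 F1 genes were, with a median of -0.48. Whether these parts differ was not tested. The c-ring gene Atp5g1 had 47.9, 54.5 and 66.5 CPM in Asb2 cKO libraries, against 141, 115 and 112 CPM in control libraries (-1.12 ± 0.16, limma adjusted p = 0.0012). Its paralog Atp5g3, which encodes the same mature protein, had 549, 570 and 751 CPM in Asb2 cKO libraries, against 1285, 1152 and 1040 CPM in control libraries (-0.90 ± 0.16, limma adjusted p = 0.0049). Both c-ring genes thus fell, with no overlap between groups. The small membrane subunit Atp5k (-1.14 ± 0.17) and the peripheral stalk subunit Atp5h (-0.89 ± 0.19) fell as well. The catalytic subunit Atp5b, the member with the highest mean CPM, had 2047, 2427 and 2485 CPM in Asb2 cKO libraries, against 3479, 3019 and 3175 CPM in control libraries, and just missed the threshold (-0.48 ± 0.16, limma adjusted p = 0.051).

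**Figure D2:**
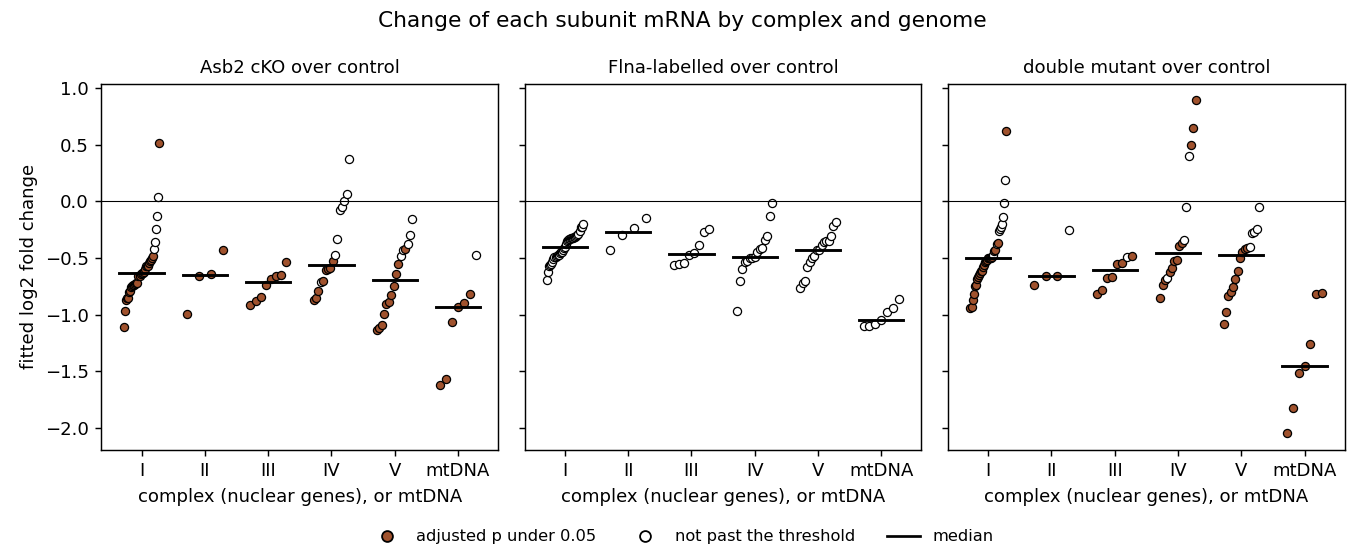
Fitted log2 fold change of each member against control, in the Asb2 cKO (left), the Flna-labelled (middle) and the double mutant hearts (right), by complex for nuclear genes and in 1 column for mitochondrial genes other than mt-Nd3. Filled points passed an adjusted p of 0.05, open points did not, and bars are medians; all points of the middle panel are open and below 0, and the mitochondrial column has the lowest median in each panel.

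Mitochondrial DNA is transcribed as long precursors that are cut into single mRNAs, and mt-Nd6 is the 1 protein gene on its other strand. The genes mt-Atp6, mt-Atp8, mt-Co2, mt-Co3 and mt-Nd4l are not analysed here, nor are the nuclear genes Atp5g2, Cox7b2 and Cox8c. Of the 7 mitochondrial members tested, 6 were lower in Asb2 cKO hearts. The largest drops were in mt-Nd1 (chrM:2751-3707 in GRCm38), a membrane-arm subunit of complex I beside the quinone site, which had 435, 411 and 442 CPM in Asb2 cKO libraries, against 1366, 1528 and 1107 CPM in control libraries (-1.62 ± 0.15, limma adjusted p = 0.00019). The second was mt-Cytb, the cytochrome b of complex III, with 453, 463 and 453 CPM in Asb2 cKO libraries, against 1434, 1649 and 1051 CPM in control libraries (-1.57 ± 0.17, limma adjusted p = 0.00034). In both genes the Asb2 cKO libraries lay close together and far below the lowest control library.

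The catalytic subunit of complex IV, mt-Co1, had 1081, 1342 and 1142 CPM in Asb2 cKO libraries, against 2459, 2979 and 2084 CPM in control libraries (-1.07 ± 0.17, limma adjusted p = 0.0029). The proton-pumping subunit genes mt-Nd2 (-0.81 ± 0.17), mt-Nd4 (-0.93 ± 0.17) and mt-Nd5 (-0.90 ± 0.18) were lower by less. Only mt-Nd6 did not pass among the 7, with 86.8, 76.8 and 62.7 CPM in Asb2 cKO libraries, against 116, 136 and 71.0 CPM in control libraries (-0.47 ± 0.22, limma adjusted p = 0.15), and its groups overlapped. The counting is not stated to use strand, so reads of mt-Nd6 cannot be told apart from reads of the opposite strand.

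**Figure D3:**
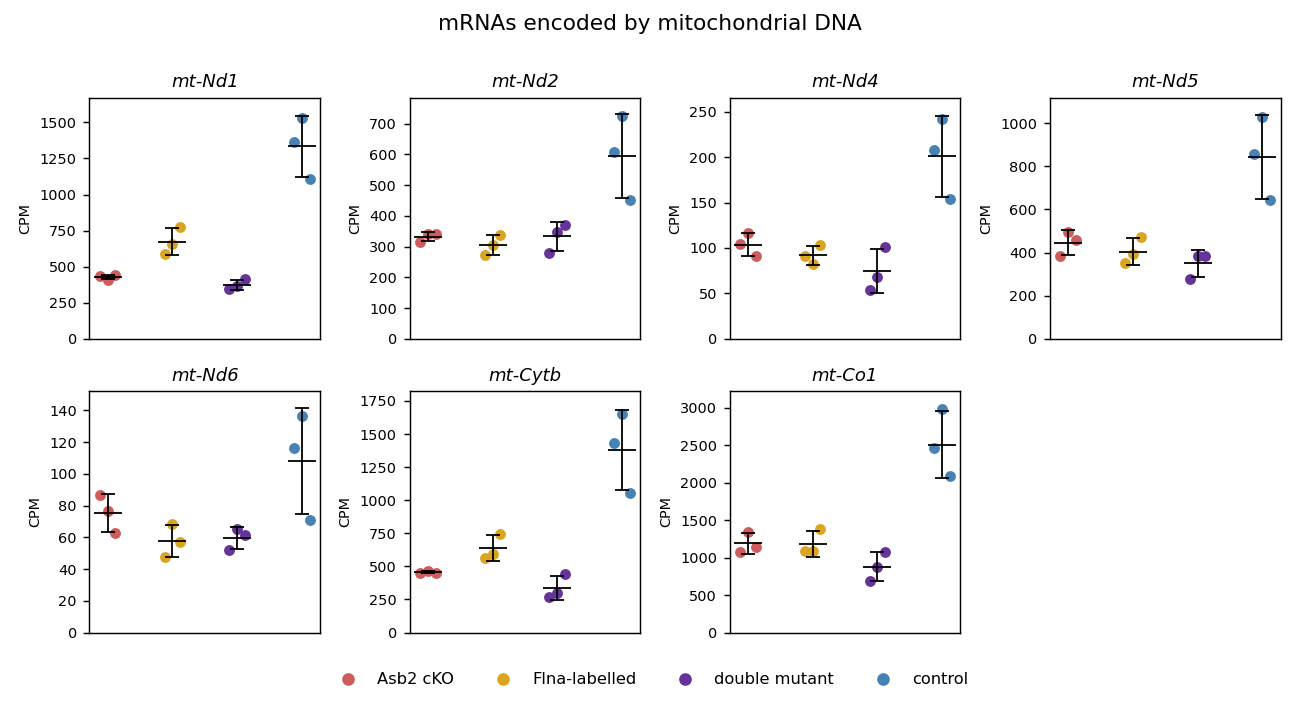
CPM of the 7 mitochondrial members in each library (points) with the mean and SD of 3 libraries, in the order Asb2 cKO, Flna-labelled, double mutant and control. Control libraries are highest in each panel but mt-Nd6, where the lowest control library (71.0 CPM) lies within the range of the Asb2 cKO libraries.

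The ribosomal RNA genes of mitochondrial DNA lie on the same strand as most of these genes and were added after their values were seen. The small ribosomal RNA mt-Rnr1 had 212, 228 and 206 CPM in Asb2 cKO libraries, 67.1, 117 and 144 CPM in Flna-labelled libraries and 201, 227 and 342 CPM in double mutant libraries, against 147, 172 and 151 CPM in control libraries. It was higher in Asb2 cKO (0.46 ± 0.13, limma adjusted p = 0.026) and double mutant hearts (0.67 ± 0.18, limma adjusted p = 0.020), and it had -0.58 ± 0.26 in Flna-labelled hearts (limma adjusted p = 0.40). These calls were lost in the joint fit (adjusted p = 0.172 in Asb2 cKO and 0.0511 in double mutant hearts) and without control library 3 (0.0711 and 0.059). In Asb2 cKO hearts the call was also lost without Asb2 cKO library 2 (adjusted p = 0.0552) or control library 1 (adjusted p = 0.10).

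The large ribosomal RNA mt-Rnr2 had 378, 396 and 361 CPM in Asb2 cKO libraries, 200, 281 and 359 CPM in Flna-labelled libraries and 365, 480 and 655 CPM in double mutant libraries, against 442, 516 and 458 CPM in control libraries. Asb2 cKO and Flna-labelled libraries lay below every control library, and double mutant libraries lay on both sides of them. It passed in none of the groups, with -0.32 ± 0.13 in Asb2 cKO (limma adjusted p = 0.10), -0.79 ± 0.19 in Flna-labelled (limma adjusted p = 0.29) and 0.04 ± 0.19 in double mutant hearts (limma adjusted p = 0.87). How much of these RNAs a library holds depends on how ribosomal RNA was removed, which the sources used here do not give.

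The Flna-labelled hearts also had lower values, but no member passed in limma. Of 85 members tested, 0 were called by limma, where 0.072% of all 13891 genes were called in either direction. All 85 had a fold change below 0, with a median of -0.43 for nuclear and -1.04 for mitochondrial members. An unadjusted p under 0.05 was reached by 71 members, all lower, where 13.1% of all genes did in either direction. edgeR on the recovered reads called 0 members, where 0.0144% of all genes were lower, and DESeq2 called 34, all lower, where 0.929% of all genes were lower. The authors' deposited table lists 12 members as lower at an FDR under 0.05, where 0.313% of its 15005 genes are. In 61 members all 3 Flna-labelled libraries lay below all 3 control libraries, where 8.71% of all genes did.

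The mitochondrial genes again had the lowest values. In Flna-labelled libraries mt-Co1 had 1087, 1083 and 1377 CPM, against the control values given above (-1.08 ± 0.15, limma adjusted p = 0.054). There mt-Nd1 had 589, 660 and 773 CPM (-0.98 ± 0.15, limma adjusted p = 0.064) and mt-Cytb had 564, 597 and 748 CPM (-1.10 ± 0.18, limma adjusted p = 0.14). All of these lay below the lowest control library, while the limma adjusted p missed the threshold. In the authors' deposited table their FDR was 1.3e-05 (mt-Co1), 1.6e-06 (mt-Nd1) and 3.7e-05 (mt-Cytb). There mt-Nd2 and mt-Nd5 (FDR 3.7e-05 each), mt-Nd4 (0.00012) and mt-Nd6 (0.0056) were lower too. Among nuclear genes, the lowest p of each complex was that of Ndufb10 (-0.57 ± 0.10), Sdhb (-0.43 ± 0.10), Uqcrb (-0.55 ± 0.12), Cox6c (-0.54 ± 0.12) and Atp5k (-0.70 ± 0.12), with limma adjusted p of 0.14 to 0.27.

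The double mutant hearts were like the Asb2 cKO hearts in the number of members called. Of 87 members tested, 62 were lower, where 16.7% of all 14015 genes were, and 5 were higher, where 15.6% were. Of these 5, mt-Nd3 passed the filter of 1 CPM only through the double mutant libraries. The median log2 fold change was -0.54 for members, -0.52 for nuclear and -1.35 for mitochondrial ones, against 0.01 for all genes. Lower calls were made for 25 of 35 nuclear genes of complex I, 3 of 4 of complex II, 7 of 8 of complex III, 9 of 16 of complex IV and 11 of 16 of ATP synthase. Across complexes, 57 members were lower in both the Asb2 cKO and the double mutant comparison, where 9.69% of the 13878 genes tested in both were; the comparisons share their control libraries.

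Of the 7 mitochondrial members listed in all groups, mt-Nd1, mt-Nd4, mt-Nd5, mt-Cytb and mt-Co1 had their lowest group mean in the double mutant, while mt-Nd2 and mt-Nd6 had theirs in Flna-labelled hearts. In double mutant libraries mt-Cytb had 266, 300 and 440 CPM, against 1434, 1649 and 1051 CPM in control libraries (-2.05 ± 0.22, limma adjusted p = 0.00028). Double mutant libraries had 342, 366 and 414 CPM of mt-Nd1, against 1366, 1528 and 1107 CPM in control libraries (-1.83 ± 0.14, limma adjusted p = 2.8e-05). For mt-Co1 the values were 691, 872 and 1081 CPM in double mutant libraries, against 2459, 2979 and 2084 CPM in control libraries (-1.52 ± 0.19, limma adjusted p = 0.00046). The groups are far apart in all 3 genes. The other drops were -1.45 ± 0.24 for mt-Nd4, -1.26 ± 0.19 for mt-Nd5, -0.82 ± 0.18 for mt-Nd2 and -0.81 ± 0.22 for mt-Nd6. The call of mt-Nd6 was lost without any 1 of the double mutant libraries or control library 1 or 2 (adjusted p = 0.0506 to 0.0706).

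Nuclear members fell much as in the Asb2 cKO hearts. Atp5g1 had 51.6, 59.5 and 60.8 CPM in double mutant libraries, against 141, 115 and 112 CPM in control libraries (-1.09 ± 0.12, limma adjusted p = 0.00028), and Atp5g3 fell by 0.80 ± 0.12 on the log2 scale. Ndufb10 had 95.0, 90.8 and 85.3 CPM in double mutant libraries, against 163, 171 and 145 CPM in control libraries (-0.81 ± 0.11, limma adjusted p = 0.00055). Ndufa4, which stabilises complex IV, had 163, 196 and 189 CPM in double mutant libraries, against 378, 351 and 271 CPM in control libraries (-0.86 ± 0.14, limma adjusted p = 0.0018). No library of either group crossed into the other for these genes. Further calls with a low p were Ndufs8 (-0.75 ± 0.10), Ndufb2 (-0.94 ± 0.14), Ndufb6 (-0.93 ± 0.14), Sdhb (-0.73 ± 0.12), Uqcrfs1 (-0.68 ± 0.11), Uqcrb (-0.81 ± 0.14), Cox6a1 (-0.74 ± 0.14), Cox6b1 (-0.70 ± 0.15), Atp5k (-0.98 ± 0.15) and Atp5j2 (-0.76 ± 0.15). Cox8a was called (-0.37 ± 0.11, limma adjusted p = 0.030), but not without control library 1 or 2 or double mutant library 1 or 2 (adjusted p = 0.074 to 0.0981), nor with the gene length trend removed (-0.20, adjusted p = 0.211).

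A few members went the other way. Ndufv3, an accessory subunit of the NADH-binding module of complex I (chr17:31520115-31531331 in GRCm38), was higher in both Asb2fl/fl groups. It had 99.0, 123 and 127 CPM in Asb2 cKO libraries and 122, 131 and 121 CPM in double mutant libraries, against 90.7, 77.2 and 75.1 CPM in control libraries. Every library of both groups was above every control library, and Flna-labelled libraries were at 61.9, 56.0 and 74.4 CPM. Of all genes, 20% lay fully above control in Asb2 cKO hearts and 23.6% in double mutant hearts. Of members, 2 of 86 and 5 of 87 did. The fold change was 0.52 ± 0.14 in Asb2 cKO (limma adjusted p = 0.027) and 0.62 ± 0.11 in double mutant hearts (limma adjusted p = 0.0026). The Asb2 cKO call was lost without Asb2 cKO library 2 or 3 or control library 2 or 3 (adjusted p = 0.0629 to 0.0935).

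Cox7a2l had 210, 246 and 205 CPM in double mutant libraries, against 167, 161 and 140 CPM in control libraries (0.50 ± 0.12, limma adjusted p = 0.010). Cox6b2, a form of Cox6b known mainly from testis, had 11.0, 11.0 and 8.72 CPM in double mutant libraries, against 3.88, 5.95 and 6.23 CPM in control libraries (0.89 ± 0.22, limma adjusted p = 0.013). Both groups were apart in each gene, and both calls were lost without double mutant library 2 (adjusted p = 0.0553 and 0.0569). Cox6a2, the heart and muscle form of Cox6a, had 95.4, 111 and 89.4 CPM in double mutant libraries, against 66.7, 56.3 and 65.7 CPM in control libraries (0.64 ± 0.12, limma adjusted p = 0.0037, but 0.16 in the joint fit of all 4 groups). In Asb2 cKO libraries it had 36.2, 118 and 58.4 CPM, a spread that brackets the control (0.01 ± 0.36).

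**Figure D4:**
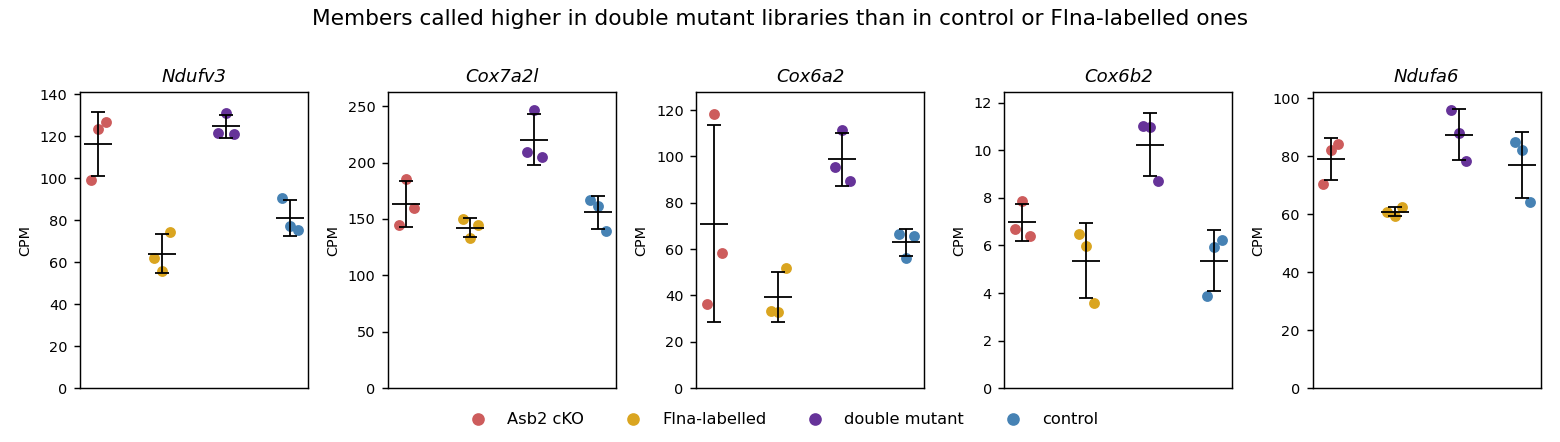
CPM of Ndufv3, Cox7a2l, Cox6a2, Cox6b2 and Ndufa6 in each library (points) with the mean and SD of 3 libraries, in the order Asb2 cKO, Flna-labelled, double mutant and control. Double mutant libraries lie above control libraries in the first 4 panels, and Cox6a2 in Asb2 cKO hearts is spread by 1 library at 118 CPM.

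The fifth gene was mt-Nd3, a small mitochondrial subunit of complex I. It had 1.98, 2.61 and 2.23 CPM in double mutant libraries, 278 reads in all, against 0 reads in control libraries and 0 reads in Asb2 cKO libraries. It is not listed for Flna-labelled libraries. It passed the filter of 1 CPM only through the double mutant libraries, so its call is no independent support for a rise. With a floor of 3 reads over the group, it was at least 72.6-fold higher in double mutant than in control libraries and at least 60.6-fold higher than in Asb2 cKO libraries, which covers counting error only. Its level is still far below those of the other mitochondrial members, and how its reads were counted was not tested. The double mutant libraries also had the most reads in listed genes, 40780462 to 42473118. Control libraries had 29798424 to 36094168 and Asb2 cKO libraries 25954539 to 29434858. A difference in library handling between the groups was not tested.

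Several subunits of complex IV have forms that replace each other, and here the forms were compared by CPM per kilobase, the scale on which genes of different length can be set side by side. Ndufa4l2 and Cox4i2, relatives of Ndufa4 and Cox4i1 that are known to be induced by low oxygen in mammalian cells, lie outside the rule. Ndufa4l2 had 53.2, 80.7 and 66.7 CPM in Asb2 cKO libraries and 85.5, 75.9 and 69.0 CPM in double mutant libraries, against 3.09, 2.63 and 1.78 CPM in control libraries. Its log2 fold change was 4.49 ± 0.23 in Asb2 cKO and 4.71 ± 0.19 in double mutant hearts, while Flna-labelled libraries had 1.42, 1.85 and 2.13 CPM. The Ndufa4l2 level per kilobase came to 0.172 ± 0.059 of that of Ndufa4 in Asb2 cKO, 0.0042 ± 0.0005 in Flna-labelled and 0.217 ± 0.044 in double mutant libraries, against 0.0038 ± 0.0004 in control libraries (SD, n = 3 each).

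Cox4i2 per kilobase stood at 0.236 ± 0.047 of Cox4i1 in Asb2 cKO, 0.031 ± 0.005 in Flna-labelled and 0.275 ± 0.025 in double mutant libraries, against 0.025 ± 0.005 in control libraries (SD, n = 3 each). In both pairs the Asb2fl/fl groups (Asb2 cKO and double mutant) stood apart from the other two, and Cox4i1 itself did not pass in either. For Cox6a2 over Cox6a1 the ratio was 0.288, 0.834 and 0.296 in Asb2 cKO libraries and 0.627, 0.569 and 0.596 in double mutant libraries, against 0.224, 0.196 and 0.271 in control libraries. The ratios of the muscle to the general form overlapped between all groups for Cox7a1 over Cox7a2, at 0.306 to 0.507 in Asb2 cKO, 0.252 to 0.411 in Flna-labelled and 0.327 to 0.431 in double mutant libraries, against 0.338 to 0.586 in control libraries. Cox8b was at 0.29 to 1.99 CPM in all libraries, too low for a comparison of forms.

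**Figure D5:**
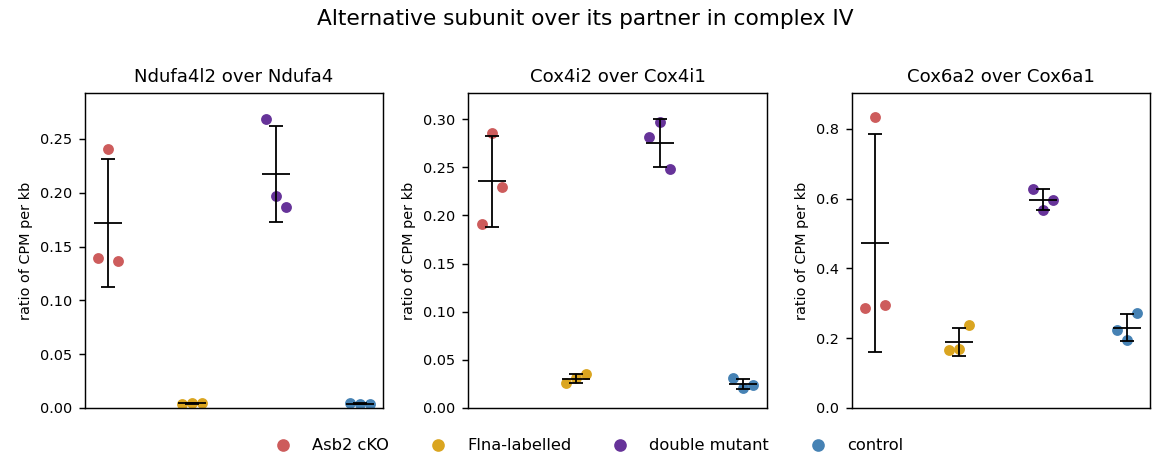
Ratio of CPM per kilobase of an alternative subunit to its partner in each library (points) with the mean and SD of 3 libraries, in the order Asb2 cKO, Flna-labelled, double mutant and control. Ndufa4l2 over Ndufa4 and Cox4i2 over Cox4i1 are high in the Asb2 cKO and double mutant libraries alone, whereas Cox6a2 over Cox6a1 reached 0.834 in 1 Asb2 cKO library and lay near 0.6 in the double mutant.

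The double mutant was next set against each single genotype. Against Asb2 cKO, 0 of 87 members were called by limma, where 0.0214% of 14037 genes were, and 8 had an unadjusted p under 0.05, where 3.36% of genes did. The median difference was 0.11 for nuclear members and -0.35 for mitochondrial members. Among the mitochondrial genes, mt-Nd4 (-0.52 ± 0.21), mt-Cytb (-0.48 ± 0.18) and mt-Co1 (-0.45 ± 0.18) had values below 0 that did not pass. The gene mt-Nd3 was called by edgeR, by DESeq2 and in the authors' deposited table (FDR 8.4e-11), but had a limma adjusted p of 0.070. Here too it passed the filter of 1 CPM only through the double mutant libraries. A p above the threshold does not show that these genotypes are alike.

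Against the Flna-labelled group, calls went in both directions. In double mutant hearts 12 of 86 members were lower, where 16.3% of all 13954 genes were, and 5 were higher, where 15.1% were. Neither share of members was above that of all genes, so these calls do not set the members apart. After rescaling by nuclear genes, 22 members were lower, where 20% of all genes were. The lower ones were led by mt-Nd1, with 342, 366 and 414 CPM in double mutant libraries, against 589, 660 and 773 CPM in Flna-labelled libraries (-0.84 ± 0.12, limma adjusted p = 0.0019), and mt-Cytb, with 266, 300 and 440 CPM in double mutant libraries, against 564, 597 and 748 CPM in Flna-labelled libraries (-0.95 ± 0.19, limma adjusted p = 0.0090). No libraries overlapped in these genes, whereas mt-Co1 missed the threshold (-0.44 ± 0.17, limma adjusted p = 0.086). Of the nuclear genes, Ndufb2 (-0.64 ± 0.14), Atp5g1 (-0.51 ± 0.12), Ndufa11 (-0.44 ± 0.11), Sdhc (-0.42 ± 0.10) and Ndufs1 (-0.41 ± 0.10) were lower. The calls of Atp5g3, Atp5j2, Ndufa8 and Uqcrc1 were lost in 5, 5, 6 and 6 of the 6 fits that left out 1 library, and those of Sdhc and Ndufs1 without Flna-labelled library 1 (adjusted p = 0.0511 and 0.0573).

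The higher ones were again Ndufv3 (0.96 ± 0.11), Cox6a2 (1.34 ± 0.18), Cox7a2l (0.62 ± 0.10) and Cox6b2 (0.91 ± 0.24), with limma adjusted p of 0.00073 to 0.021, the last lost without double mutant library 1 or 2 (adjusted p = 0.0557 and 0.0808). They were joined by Ndufa6, an accessory complex I subunit, with 95.9, 88.0 and 78.4 CPM in double mutant libraries, against 60.8, 59.4 and 62.4 CPM in Flna-labelled libraries (0.51 ± 0.10, limma adjusted p = 0.0054). Cox6a2 had 33.4, 32.7 and 51.9 CPM in Flna-labelled libraries, each below the lowest control library.

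A direct comparison of Asb2 cKO with Flna-labelled libraries was added after the data were seen. Of 85 members, 7 were lower, where 7.54% of all 13996 genes were, and Ndufv3 was higher (0.86 ± 0.15, limma adjusted p = 0.0078), where 8.13% were. The share of members lower was close to that of all genes and the share higher was below it, so these calls do not set the members apart. The lower ones were mt-Nd1 (-0.64 ± 0.13), Sdhb (-0.57 ± 0.14), Atp5g1 (-0.54 ± 0.16), Ndufs1 (-0.54 ± 0.13), Ndufa11 (-0.52 ± 0.14), mt-Cytb (-0.47 ± 0.14) and Uqcrc1 (-0.44 ± 0.12), with limma adjusted p of 0.016 to 0.045. The other mitochondrial genes had values from 0.01 for mt-Co1 to 0.38 for mt-Nd6, none of them called. The count of called members was 1 without Flna-labelled library 2, 2 without Flna-labelled library 1 or 3, 4 without Asb2 cKO library 1, 5 without Asb2 cKO library 2 and 13 without Asb2 cKO library 3. Calls over all genes, 2193 of 13996 in the main fit, ranged from 609 of 13955 (without Flna-labelled library 1) to 2374 of 13976 (without Asb2 cKO library 1).

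Whether the effect of the Asb2fl/fl genotype differed with the Flna label was tested as an interaction over all 12 libraries. All 86 members tested had a value above 0, with a median of 0.55. By limma or edgeR 0 were called, where 0% of 13981 genes were called by limma. DESeq2 called 5 members, all higher, where it called 71 of 13981 genes, 51 of them lower. An unadjusted limma p under 0.05 was reached by 59 members, where 9.81% of all genes did. The lowest nuclear p was that of Ndufb10 (0.61 ± 0.14, limma adjusted p = 0.40), and mt-Nd1 had 0.78 ± 0.19 (limma adjusted p = 0.40). The control libraries enter this value with a positive sign. In 44 of the 86 members all 9 libraries of the other genotypes lay below all 3 control libraries, where 3.75% of all genes did.

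Genes that serve the chain without being subunits were counted by list. Cycs, the cytochrome c that shuttles between complexes III and IV, had 7.40, 6.80 and 10.7 CPM in Asb2 cKO libraries and 7.49, 11.6 and 8.54 CPM in double mutant libraries, against 21.5, 24.1 and 21.7 CPM in control libraries (-1.41 ± 0.20 and -1.26 ± 0.18). Cyc1, the cytochrome c1 of complex III, was lower by 0.79 ± 0.14 and 0.82 ± 0.12 on the log2 scale in these groups. Of 8 subunits and carriers outside the symbol rule, 5 were lower and 2 higher in Asb2 cKO and 6 lower and 2 higher in double mutant hearts, the higher ones being Ndufa4l2 and Cox4i2, and 0 were called by limma in Flna-labelled hearts. The shares of all genes were 10.9% lower and 10.7% higher in Asb2 cKO and 16.7% lower and 15.6% higher in double mutant hearts.

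Assembly factors, which build the complexes but do not stay in them, were lower for 24 of 44 genes in Asb2 cKO hearts (median -0.47), 0 of 44 in Flna-labelled hearts by limma (-0.19) and 22 of 44 in double mutant hearts (-0.38). None was called higher by limma against control. Of all genes, 10.9% were lower in Asb2 cKO and 16.7% in double mutant hearts. The lowest p were those of Ndufaf4 (-1.10 ± 0.14), Cox10 (-1.02 ± 0.14), Cmc2 (-1.21 ± 0.20) and Ndufaf5 (-1.07 ± 0.19) in Asb2 cKO hearts, and of Ndufaf5 (-1.03 ± 0.13) and Ndufaf4 (-0.89 ± 0.12) in double mutant hearts. Ndufaf4 and Ndufaf5 act on complex I, and Cox10 makes the heme of complex IV.

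Of 29 genes for mitochondrial genome expression and biogenesis, 6 were lower and 1 higher in Asb2 cKO and 8 lower and 2 higher in double mutant hearts, with 0 called by limma in Flna-labelled hearts. Of all genes, 10.9% were lower and 10.7% higher in Asb2 cKO and 16.7% lower and 15.6% higher in double mutant hearts. The RNA-binding protein gene Fastkd2 (-0.89 ± 0.20 and -0.77 ± 0.12) and the RNA-degrading enzyme gene Pnpt1 (-0.59 ± 0.14 and -0.69 ± 0.15) were lower in Asb2 cKO and in double mutant hearts. Leaving out control library 2 ended the Asb2 cKO call of Pnpt1 (adjusted p = 0.0802). The mitochondrial RNA polymerase Polrmt was lower in double mutant hearts (-0.55 ± 0.12, limma adjusted p = 0.0062). Lonp1, the matrix protease, had 233, 389 and 285 CPM in Asb2 cKO libraries and 315, 315 and 303 CPM in double mutant libraries, against 184, 176 and 171 CPM in control libraries (0.74 ± 0.18 and 0.81 ± 0.10). All libraries of both groups were above all control libraries. Tfam, which packages mitochondrial DNA and starts its transcription, had -0.20 ± 0.17 and -0.11 ± 0.14 and did not pass.

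Members are short genes, with a median length of 1336 bases against 3648 for all genes tested against control in Asb2 cKO hearts, and fold change rose with length across genes (Pearson's r = 0.20 in Asb2 cKO, 0.23 in Flna-labelled and 0.19 in double mutant hearts, over genes that share libraries). With that trend removed, 55 members were lower in Asb2 cKO hearts (median -0.49), where 11.2% of all genes were, and 54 were lower in double mutant hearts (-0.40), where 16.9% were. None was called by limma in Flna-labelled hearts (-0.32), where 0.0144% of all genes were lower.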

How the data were processed

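The series holds 12 RNA-seq libraries of embryonic hearts in 4 tables of paired genotype groups. The submitters' processing notes name STAR, HTSeq, edgeR and the mm10 build. Versions, gene annotation and strand setting are not given in the sources used here. The deposited expression values are called CPM by the authors but have the unit signal, since columns sum to 942334 to 1051800: they came out as whole reads (100.0% within 0.01 read) once each library's own step was divided out. Plain CPM had been assumed when the tests were planned, and the same test was kept. The authors also deposited log2 fold changes, p-values and FDR from their own comparisons, which are printed only where named. Another 13 unnamed columns with stray cells were not used.

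The tables agreed to within 4.4e-06 CPM and were joined on gene identifier. Groups come from the genotype labels. limma 3.58.1 (trend, robust; R 4.3.3) was fitted to log2(CPM + 0.5) over genes averaging at least 1 CPM, for the groups compared, with Benjamini-Hochberg adjustment over all genes and a threshold of 0.05; the interaction used all 12 libraries. The fit was checked on simulated data. edgeR 4.0.16 and DESeq2 1.42.0 on the recovered reads, other pseudocounts (0.1 and 2), filters, scalings, a length correction, a joint fit, the replicate number as a block and leaving out each library were alternatives. Floors used 3 reads over a group. Positions are from GENCODE M21 (GRCm38). Promoter windows are from RefSeq. The members, the lists of other genes and the rule for named genes (all mitochondrial members, the c-ring genes, the isoform pairs, up to 4 called nuclear members per complex, comparison and direction by lowest p or the lowest p where none was called, all calls against the majority direction, and up to 5 per other list) were chosen with earlier results of these data known. Cox7c, Atp5b, Ndufa5 and Tfam fall outside that rule and were named after their values were seen.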

Additional observations from a re-analysis of the deposited data

How the results depend on the processing

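Under the alternatives 109 gene calls were followed, 84 of members and 25 of other genes. Nuclear members among them were mostly those with the lowest p. Calls of the remaining members were not followed one by one, so the shares below describe the stronger calls. Of the calls followed, none reversed and 81 passed under every alternative. Of their 1957 values, 132 kept their direction but missed the threshold. Of 131 counts of called members, 105 stayed within 1.5 times the main count. For Asb2 cKO against control the main count of 66 became 42 in limma without trend and robust fitting and 33 with a replicate block, and ranged from 34 to 63 when 1 library was left out. Calls over all 14034 genes went from 3033 in the main fit to 2117 without trend and robust fitting and 1557 with the block. For Flna-labelled against control the main count of 0 became 1 without a filter on low values, 1 in the joint fit and 34 in DESeq2, and ranged from 0 to 6, reaching 6 without Flna-labelled library 3. Over all genes, 10 of 13891 were called in the main fit. In these alternatives 11 of 15005, 2 of 13981, 244 of 13891 and 98 of 13935 genes were called. For double mutant against control the main count was 67 and no alternative moved it by over 1.5 times. For double mutant against Asb2 cKO the main count of 0 became 1 without a filter, in limma without trend, in edgeR and in DESeq2, and ranged from 0 to 1, reaching 1 without Asb2 cKO library 2. Over all genes, 3 of 14037 were called in the main fit. In these alternatives 4 of 15468, 3, 4 and 14 of 14037 and 26 of 14023 genes were called. For double mutant against Flna-labelled the main count of 17 became 27 after rescaling by nuclear genes, and ranged from 11 (without double mutant library 1 or Flna-labelled library 1) to 17. Over all genes, 4394 of 13954 were called in the main fit and 4501 of 13972 after rescaling. Without double mutant library 1 or Flna-labelled library 1, 4006 of 13950 and 2805 of 13929 genes were called. For Asb2 cKO against Flna-labelled the main count of 8 became 14 after rescaling by nuclear genes, 2 in limma without trend and 16 in the joint fit, and ranged from 1 to 13. Over all genes, 2193 of 13996 were called in the main fit. In these 3 alternatives of that comparison 2293 of 14032, 1355 of 13996 and 3346 of 13981 genes were called. All alternatives of that comparison were chosen after seeing the data. The interaction count of 0 became 5 in DESeq2, where calls over all 13981 genes went from 0 to 71. The cause of these shifts was not tested. Rescaling by nuclear genes moved the median of all genes to 0.07 for Flna-labelled against control and to -0.09 for double mutant against Flna-labelled. Replicate numbers were not used as pairs in the main fits. In 0 of 6 pairs of groups were all correlations of same-numbered libraries above 0.1 (range -0.465 to 0.426). With 3 libraries per group this cannot exclude shared litters or batches. The replicate block gave 67 for double mutant against control, 24 for double mutant against Flna-labelled and 7 for Asb2 cKO against Flna-labelled. Over all genes it called 4358 of 14015, 5474 of 13954 and 1688 of 13996, against 4523, 4394 and 2193 in the main fits.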
